A study of Mus musculus with 6 samples.

Results

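The 10 genes described here form the core of the circadian clock, and all 10 were found among the 15667 genes of the deposited table by their symbols. They are Arntl, Clock, Npas2, Per1, Per2, Per3, Cry1, Nr1d1, Nr1d2 and Dbp. Their levels were read in 6 RNA-seq libraries of tick-bitten ear skin, 3 from wild-type mice (WT, Adipo+/+) and 3 from littermates without adiponectin (KO, Adipo-/-). The KO mice were homozygous for the null allele of the B6;129-Adipoqtm1Chan/J line, a germline null, so that the loss is not limited to skin or fat. According to the methods of the study the mice were females of 7 to 8 weeks, each carried 10 nymphs of the tick Ixodes scapularis, and a single ear punch was taken after 48 h. All 6 mice had been bitten. The labels name the tissue as ear, and 10 of 10 keratinocyte markers and 6 of 6 fibroblast markers were above the filter on low values. The time of day at which the skin was taken, and the lighting under which the mice were kept, do not appear in the labels or methods.

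The circadian clock is a transcriptional feedback loop that runs in nearly every cell. Arntl (also called Bmal1) pairs with Clock, or with its close relative Npas2, and the pair switches on genes through short DNA sequences called E-boxes. Among these genes are the repressors Per1, Per2, Per3 and Cry1, whose proteins return to block the activators, and Nr1d1 and Nr1d2 (REV-ERB alpha and beta), which repress Arntl. Dbp is a transcription factor whose RNA follows the activators closely and which carries the rhythm to output genes through a sequence called the D-box. In a cell with a running clock, Arntl RNA peaks at about the opposite time of day from Dbp and Nr1d1 RNA. Skin clocks are known to run in keratinocytes, fibroblasts and hair follicles.

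Promoter windows of RefSeq (GRCm38.p6), reaching from 250 bases before to 50 bases after a start site, were given for 9 of the 10 genes in 13 windows, with none for Per2. The sequences below show where these windows hold the motifs searched. All but the cyclic AMP response element are motifs through which genes of the loop are known to act on each other. The motifs searched on both strands were the E-boxes CACGTG and CACGTT, the D-box TTANGTAA, the ROR and REV-ERB element TAGGTCA and the cyclic AMP response element TGACGTCA. Capitals mark a match, and each sequence is written 5′ to 3′ on the strand of its gene.

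Arntl, chr7:113207530-113207558, plus strand, TAGGTCA in capitals: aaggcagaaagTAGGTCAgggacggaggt

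Per1, chr11:69098699-69098948, plus strand, E-box in capitals: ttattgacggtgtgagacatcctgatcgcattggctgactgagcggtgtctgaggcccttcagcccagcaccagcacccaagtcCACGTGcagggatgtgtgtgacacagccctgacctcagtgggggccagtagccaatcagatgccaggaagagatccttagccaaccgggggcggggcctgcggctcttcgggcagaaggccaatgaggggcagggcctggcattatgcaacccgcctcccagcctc

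Cry1, chr10:85185055-85185304, minus strand, E-boxes in capitals: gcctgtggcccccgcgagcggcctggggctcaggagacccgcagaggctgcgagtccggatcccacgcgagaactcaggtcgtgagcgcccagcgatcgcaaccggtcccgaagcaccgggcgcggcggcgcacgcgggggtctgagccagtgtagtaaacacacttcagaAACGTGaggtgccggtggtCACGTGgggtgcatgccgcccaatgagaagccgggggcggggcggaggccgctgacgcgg

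Nr1d1, chr11:98775378-98775627, minus strand, E-box in capitals: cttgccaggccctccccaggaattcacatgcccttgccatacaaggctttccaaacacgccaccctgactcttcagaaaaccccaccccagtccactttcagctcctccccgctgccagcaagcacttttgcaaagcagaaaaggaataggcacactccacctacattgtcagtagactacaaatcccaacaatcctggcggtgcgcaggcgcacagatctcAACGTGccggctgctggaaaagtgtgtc

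Per3, chr4:151044666-151044915, minus strand, D-boxes in capitals: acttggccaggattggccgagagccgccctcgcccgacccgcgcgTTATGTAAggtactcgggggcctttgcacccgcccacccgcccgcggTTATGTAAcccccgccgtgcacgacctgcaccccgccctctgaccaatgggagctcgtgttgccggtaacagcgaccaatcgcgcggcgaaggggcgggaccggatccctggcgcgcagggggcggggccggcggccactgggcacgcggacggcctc

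The match in Arntl began at base 31 of the transcript that starts at 113207511. In Per1 the E-box began 166 bases before the start site. Cry1 held CACGTG 60 bases and CACGTT 79 bases before its start, and Nr1d1 held CACGTT 28 bases before its start, these CACGTT matches being on the opposite strand and so printed as AACGTG. Per3 held 2 D-boxes of the same letters, 205 and 158 bases before its start. Of all 32851 promoter windows, 7.15% held CACGTG, 4.69% CACGTT, 2.32% the D-box, 2.61% TAGGTCA and 1.79% TGACGTCA. The windows of Clock, Npas2, Nr1d2 and Dbp held none of these letters, nor did the other windows of Arntl and Per1. A match describes the letters of a window and is not evidence that a factor was bound there.

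Values are given in CPM, the reads of a gene in every 1000000 of its library. Libraries held between 3403687 and 6591490 reads, as implied by the CPM that a single read is worth. Adipoq, the deleted gene, was at 30.5, 63.7 and 49.6 CPM in WT replicates 1, 2 and 3, and at 0, 0.56 and 0 CPM in the KO replicates (log2 fold change -6.17 on the log2(CPM + 0.5) scale, SE 0.41, adjusted p = 0.00322, limma), so the labels matched the genotype in all 6 libraries. It passed the adjustment in 16 of 19 alternatives. Marker sums differed among the libraries. The 18 hair follicle markers summed to 14.04 to 23622 CPM for WT against 972 to 9399 CPM for KO, and 13 of them were at 0 in at least 1 library (Krt25, Krt28, Krt71, Krt72, Krt73, Krt31, Krt33a, Krt33b, Krt35, Krt85, Krt86, Padi3 and Shh). The 14 skeletal muscle markers summed to 6243 to 8136 CPM for WT against 3841 to 7719 CPM for KO, the 10 adipocyte markers to 674 to 1034 and 373 to 944 CPM, and the 8 macrophage markers to 531 to 1089 and 513 to 1034 CPM. The neutrophil markers (8 of 9 analysed, without Ly6g) summed to 17.0 to 593 CPM for WT against 74.5 to 193 CPM for KO. In such bulk samples, fewer cells of a type and less RNA per cell cannot be told apart.

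To place the genes on a common scale, levels were divided by the length of the exons that GENCODE M21 (GRCm38) gives in its basic set. The REV-ERB genes and Dbp stood above the activators. Nr1d1 was highest, with 75.7 ± 10.1 CPM per kilobase of exon (SD over 6 libraries), followed by Dbp at 47.7 ± 8.99, Nr1d2 at 32.6 ± 4.42 and Per1 at 19.4 ± 3.46. Clock (12.8 ± 2.40), Per3 (9.27 ± 1.44), Arntl (6.03 ± 1.45), Cry1 (4.84 ± 1.38) and Per2 (4.57 ± 0.568) followed, and Npas2 was lowest at 1.19 ± 0.399 CPM per kilobase. Nr1d1 did not overlap Dbp, its neighbour in this order (61.5 to 85.7 against 35.8 to 56.5 CPM per kilobase), nor did Nr1d2 overlap Per1 or Per2 overlap Npas2. The ranges of the other neighbouring pairs overlapped. Compared library by library, Dbp was nevertheless above Nr1d2 in 6 of 6 libraries (1.26 to 1.61 times) and Clock above Per3 in 6 of 6 (1.02 to 1.90 times). Per1 was above Clock in 5 of 6, Per3 above Arntl in 5 of 6, Arntl above Cry1 in 4 of 6 and Cry1 above Per2 in 3 of 6, so the order within these 4 pairs was not the same in every library.

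**Figure D1:**
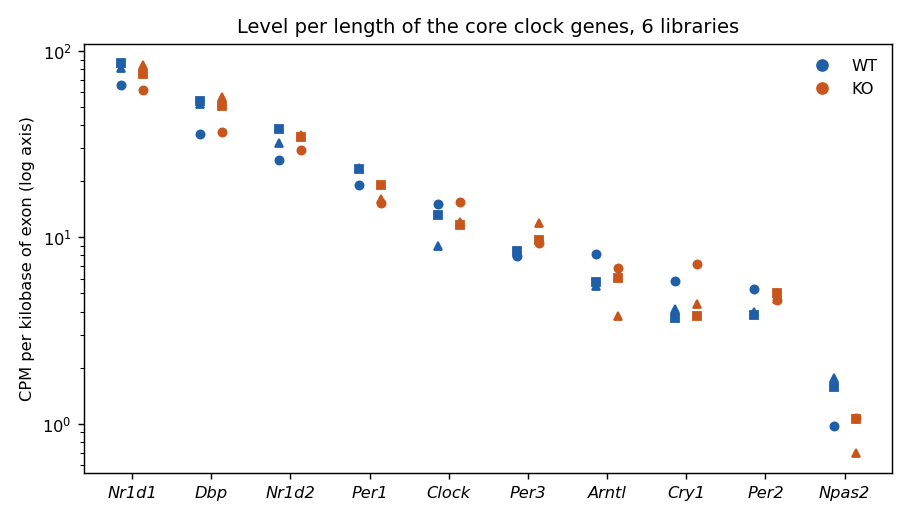
Level of each core clock gene per kilobase of exon (vertical axis, CPM per kilobase, log scale) in the 3 WT (blue) and 3 KO (orange) libraries, with circles, squares and triangles for replicates 1, 2 and 3. Nr1d1, at 61.5 to 85.7 CPM per kilobase, lay above all other members in these libraries, and Npas2, at 0.694 to 1.75, below them.

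Next, KO skin was compared with WT skin, a question that bears on whether the loss of adiponectin goes with a different state of the skin clock at the bite site. None of the 10 genes differed between the genotypes after Benjamini-Hochberg adjustment over the 14306 genes tested in limma (adjusted p = 0.998 for each of the 10). Per1 was lower in KO and Per3 higher at an unadjusted p below 0.05, which is 1 lower and 1 higher member of 10. Among all genes tested 1.82% were lower and 1.06% higher at that level (2.88% together), and 0.014% passed the adjustment. The split over all genes depended on the scaling, with 260 lower and 152 higher as deposited, 215 and 209 after median-of-ratios rescaling, and 193 and 232 after quantile normalization. The median log2 fold change of the 10 genes was 0.04, against -0.03 over all genes tested. The 3 KO values lay wholly above the 3 WT values for 1 member, Per3, and wholly below them for 0, against 2.95% and 4.89% of all genes tested (7.84% together).

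**Figure D2:**
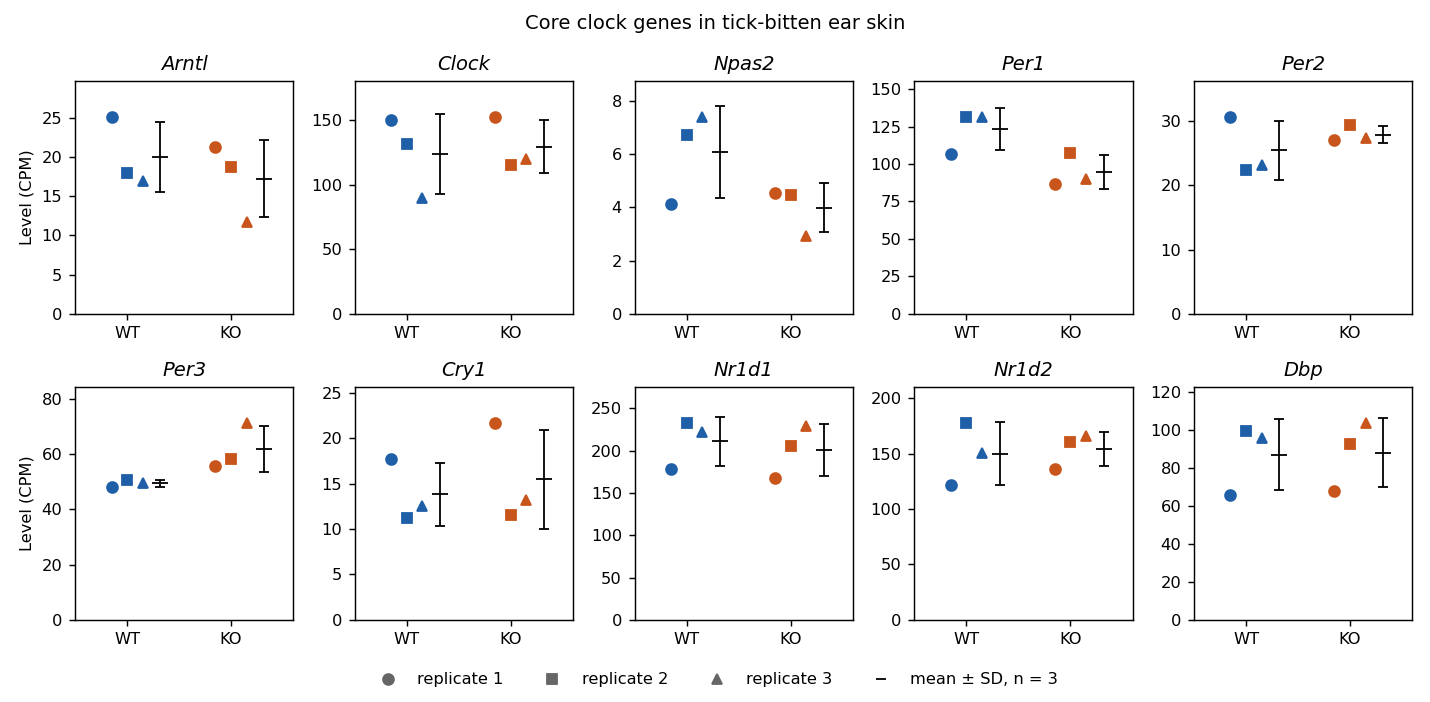
Level of each core clock gene (vertical axes, CPM, each from 0) in the WT (blue) and KO (orange) libraries, with circles, squares and triangles for replicates 1, 2 and 3 and black bars for the mean ± SD (n = 3). Per3 was the only member of the 10 whose KO values (55.7 to 71.4 CPM) all lay above its WT values (47.9 to 50.7 CPM), and Dbp showed its 2 lowest values in replicate 1 of each genotype (65.8 and 67.9 CPM).

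Per1 and Per3, of the Period repressors, were the members with the smallest p. Per1 (chr11:69098949-69109957, plus strand), an early response gene that light, cyclic AMP and glucocorticoids are known to induce, measured 107, 131 and 132 CPM across WT replicates 1, 2 and 3, against 86.3, 107 and 90.2 CPM across KO replicates 1, 2 and 3. The groups overlapped only through WT replicate 1 (106.99 CPM) and KO replicate 2 (107.33 CPM), and they did not overlap after median-of-ratios rescaling or with the total taken without the ribosomal RNA gene Rn45s, scalings under which 7.96% and 7.88% of all genes tested did not overlap. The log2 fold change was -0.38 (SE 0.13, 95% interval -0.69 to -0.07, adjusted p = 0.998, limma). Per1 was lower in KO under each of 19 alternatives, with a log2 fold change of -0.48 to -0.32, and 14 of these had an unadjusted p below 0.05. The other 5 were the fits that left out replicate 2 of WT (log2 fold change -0.33), replicate 3 of WT (-0.33), replicate 1 of KO (-0.32) or replicate 3 of KO (-0.35), and that with the skeletal muscle score as a covariate (-0.34).

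Per3 (chr4:151003655-151044665, minus strand), a Period gene whose loss leaves the rhythm of mice largely intact, measured 47.9, 50.7 and 49.6 CPM across the WT libraries, against 55.7, 58.3 and 71.4 CPM across the KO libraries. The WT values were close together, and the highest KO value came from replicate 3, the shallowest library. The log2 fold change was 0.31 (SE 0.13, 95% interval 0.01 to 0.61, adjusted p = 0.998, limma), and it was 0.20 without KO replicate 3. Per3 was higher in KO under each of the 19 alternatives, with an unadjusted p below 0.05 in 11. The other 8 were those without WT replicate 1, 2 or 3 or without KO replicate 2 or 3, that without the mean-variance trend, limma voom, and the hair follicle covariate.

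Per2 (chr1:91415982-91459328, minus strand), whose protein is a core repressor, measured 30.7, 22.4 and 23.2 CPM across the WT libraries, against 27.0, 29.4 and 27.3 CPM across the KO libraries. The KO values fell between the lowest and highest WT values, and the log2 fold change was 0.14 (95% interval -0.23 to 0.52). Within each library the log2 level of Per3 minus that of Per1 was -1.15, -1.37 and -1.40 for WT, and -0.63, -0.88 and -0.34 for KO. These differences did not overlap between the genotypes, their means being -1.31 ± 0.14 and -0.61 ± 0.27 (SD, n = 3). The shift of 0.69 follows from the opposite signs of the 2 genes, the members of smallest p, and was not tested. Per3 alone already did not overlap, and no share over other gene pairs was computed, so the separation is not a further result.

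Because Per1 is known to be induced by glucocorticoids, 10 other genes of that response were read beside it, from a list written with earlier results of these data known. Of these, 4 were lower in KO at an unadjusted p below 0.05 in limma and 0 were higher, against 1.82% and 1.06% of all genes tested, and 0 passed the adjustment (adjusted p = 0.998 each). They were Zbtb16 (log2 fold change -0.58), Fkbp5 (-0.55), Klf9 (-0.48) and Dusp1 (-1.02), of which Fkbp5 encodes a co-chaperone of the glucocorticoid receptor and Dusp1 a phosphatase of MAP kinases. Recounted after the data had been seen, the number was 0 without the mean-variance trend and 1 without WT replicate 2, and 2 to 5 under the other 17 alternatives. The median of the 10 was -0.44, and it was between -0.48 and -0.31 whichever library was left out. Summed over the list, the level was 943 to 1042 CPM for WT against 675 to 772 CPM for KO. Such a sum weighs genes of high level most. No share over sums of other gene lists was computed, so the separation of the sums is not a further result. Taken singly, the groups did not overlap for 1 of the 10, Zbtb16, which was lower in KO, against 4.89% of all genes tested. Those of Fkbp5, Klf9 and Dusp1 overlapped. The part of these signals in the lower Per1 was not tested.

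Cry1 (chr10:85131700-85185054, minus strand), the other repressor of the set and partner of the Period proteins, measured 17.7, 11.2 and 12.5 CPM across the WT libraries, against 21.7, 11.5 and 13.2 CPM across the KO libraries. Replicate 1 was the highest library of each genotype, and the groups overlapped (log2 fold change 0.13, 95% interval -0.52 to 0.79). Its values rested on 41 to 143 reads per library, and the exact Poisson interval, which covers counting error only, was 18.3 to 25.6 CPM in KO replicate 1 and 8.25 to 15.6 CPM in KO replicate 2.

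Among the activators, Arntl (chr7:113207465-113314126, plus strand), the component without which the loop stops, measured 25.2, 17.9 and 17.0 CPM across the WT libraries, against 21.2, 18.8 and 11.8 CPM across the KO libraries. WT replicate 1 was highest and KO replicate 3 lowest, and these 2 libraries did not overlap in their counting intervals (20.6 to 30.5 CPM from 104 reads, and 8.40 to 16.0 CPM from 40 reads). The 2 libraries were picked as the extremes and the intervals cover counting error only, so this is not a comparison of the genotypes. The log2 fold change was -0.23 (SE 0.26, 95% interval -0.83 to 0.37, adjusted p = 0.998, limma). It was 0.02 without KO replicate 3, and -0.66 (adjusted p = 0.942, limma, with an unadjusted p below 0.05) with the skeletal muscle score as a covariate.

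Clock (chr5:76209868-76304792, minus strand), the partner of Arntl, measured 151, 132 and 89.5 CPM across the WT libraries, against 153, 116 and 120 CPM across the KO libraries, and its groups overlapped (log2 fold change 0.09, 95% interval -0.38 to 0.56). Npas2 (chr1:39194272-39363240, plus strand), which can stand in for Clock, measured 4.11, 6.71 and 7.42 CPM across the WT libraries, against 4.55, 4.48 and 2.94 CPM across the KO libraries. Its log2 fold change was -0.54 (SE 0.32, 95% interval -1.27 to 0.19, adjusted p = 0.998, limma), the lowest of the 10 genes, and WT replicate 1 lay within the KO values. Only 10 to 45 reads per library stood behind Npas2, with a counting interval of 1.41 to 5.403 CPM in KO replicate 3. Without WT replicate 1 its log2 fold change was -0.77 (adjusted p = 0.956, limma, with an unadjusted p below 0.05), and without KO replicate 3 it was -0.35.

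The REV-ERB genes and Dbp, the members that respond most strongly to the activators in most tissues, had fold changes near 0. Nr1d1 (chr11:98767932-98775377, minus strand) measured 178, 233 and 222 CPM across the WT libraries, against 167, 206 and 229 CPM across the KO libraries (log2 fold change -0.07, 95% interval -0.43 to 0.28). Nr1d2 (chr14:18204056-18239106, minus strand) measured 121, 178 and 151 CPM across the WT libraries, against 137, 161 and 166 CPM across the KO libraries (0.05, interval -0.31 to 0.41). Dbp (chr7:45705247-45710203, plus strand) measured 65.8, 99.6 and 95.8 CPM across the WT libraries, against 67.9, 92.6 and 104 CPM across the KO libraries (0.02, interval -0.47 to 0.50). In all 3 genes replicate 1 was the lowest library of both genotypes, and the groups overlapped. With the skeletal muscle score as a covariate the log2 fold changes were 0.14 for Nr1d1, 0.21 for Nr1d2 and 0.32 for Dbp, none with an unadjusted p below 0.05. The intervals without it still include changes of about 0.3 to 0.5 on the log2 scale in either direction. Nr1d1 overlaps Thra (chr11:98741785-98769006), the thyroid hormone receptor gene on the opposite strand, at its end, and Dbp overlaps Sphk2 (chr7:45709463-45718002) in the same way. The labels and methods do not say whether counting used strand, so reads in the shared stretches could belong to either gene. Thra was at 49.6 to 75.5 CPM and Sphk2 at 54.4 to 74.4 CPM over the 6 libraries.

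Other genes of the clock were examined from a list of 23, of which 22 were tested and Fbxl21 was below the filter (0.242 to 1.32 CPM). At an unadjusted p below 0.05, limma called 0 of the 22 and limma voom 0, and 0 passed the adjustment (adjusted p = 0.998 for the lowest), with 12 log2 fold changes below 0, 10 above 0 and a median of -0.02. The smallest p belonged to Bhlhe40, a repressor that competes for E-boxes, with 153 ± 28.7 CPM (SD, n = 3) for WT against 129 ± 6.19 CPM for KO (log2 fold change -0.22). It was followed by Hlf, a relative of Dbp, with 202 ± 15.4 and 226 ± 19.7 CPM (0.16), Timeless, a replication fork gene named for its fly relative, with 13.4 ± 1.89 and 16.0 ± 0.980 CPM (0.26), and Nfil3, which represses through D-boxes, with 13.1 ± 5.50 and 9.25 ± 6.32 CPM (-0.59). Nfil3 varied more within each genotype (8.34 to 19.1 CPM for WT against 5.29 to 16.5 CPM for KO) than between them. Its unadjusted p was below 0.05 without KO replicate 2 (log2 fold change -1.08, adjusted p = 0.998, limma) and with the hair follicle covariate (-0.93, adjusted p = 0.793, limma). The same held for Wee1, a cell cycle kinase, without WT replicate 1 (-0.43, adjusted p = 0.956, limma). Wee1 was chosen after its values were seen. Of the 22, the groups did not overlap for 1 higher in KO, Timeless, and 1 lower, Csnk1d. Among all genes tested, 2.95% were higher and 4.89% lower without overlap.

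**Figure D3:**
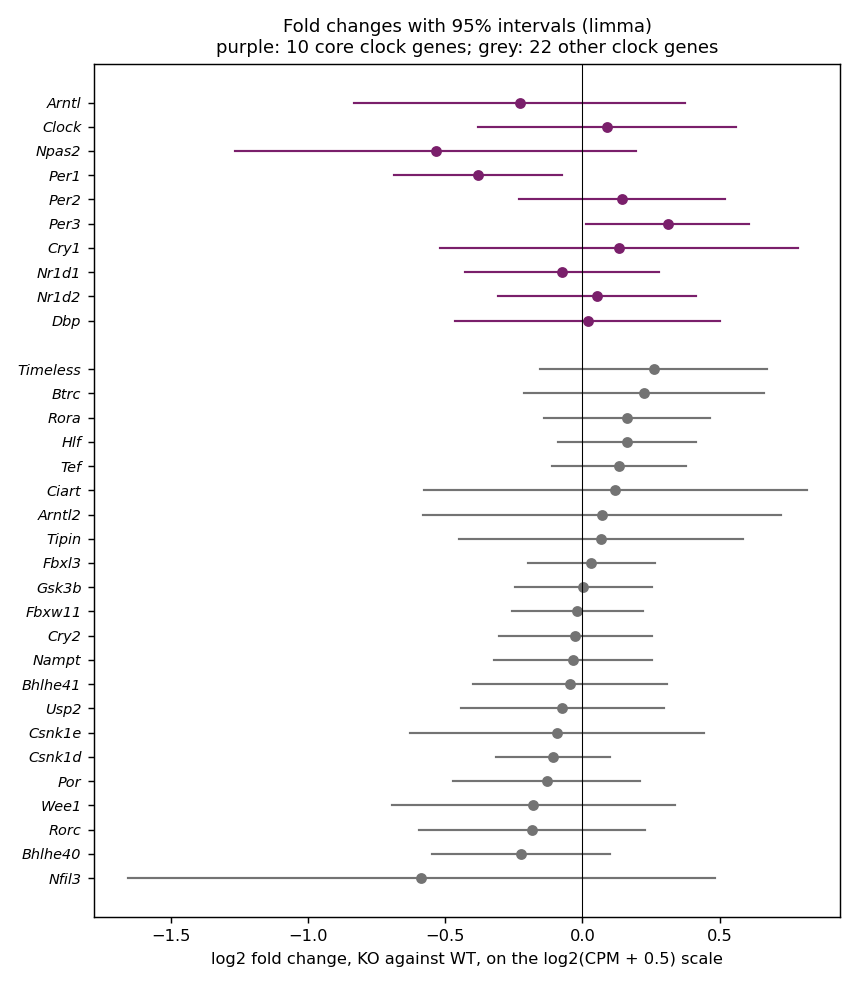
Log2 fold change of KO against WT on the log2(CPM + 0.5) scale (horizontal axis) with its 95% interval from limma, for the 10 core clock genes (purple) and the 22 other clock genes tested (grey). The intervals of Per1 (-0.69 to -0.07) and Per3 (0.01 to 0.61) leave out 0, and none of the 22 others does.

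Several of the 10 genes varied among the libraries in a way that both genotypes showed. Arntl, Clock and Cry1 were each highest in replicate 1 of WT and replicate 1 of KO, while Nr1d1, Nr1d2 and Dbp were each lowest in those same 2 libraries. This order was chosen for description after the values were seen. It was not particular to clock genes, since 10.9% of all genes tested had these 2 libraries as their highest and 13.8% as their lowest. The neutrophil markers were also highest there (593 and 193 CPM, against 17.0 to 169 CPM in the other 4 libraries), and the fibroblast markers lowest (4466 and 4556 CPM, against 5119 to 6984 CPM). The keratinocyte, macrophage, adipocyte, skeletal muscle and hair follicle markers had neither their 2 highest nor their 2 lowest sums there. The part of the neutrophil and fibroblast markers in the clock pattern was not tested. The labels give replicate numbers but do not say that replicates of 1 number share a day or a batch. The share of reads from Rn45s was 11.4% for WT replicate 1, 10.5% for KO replicate 1 and 7.99% to 10.8% for the others.

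**Figure D4:**
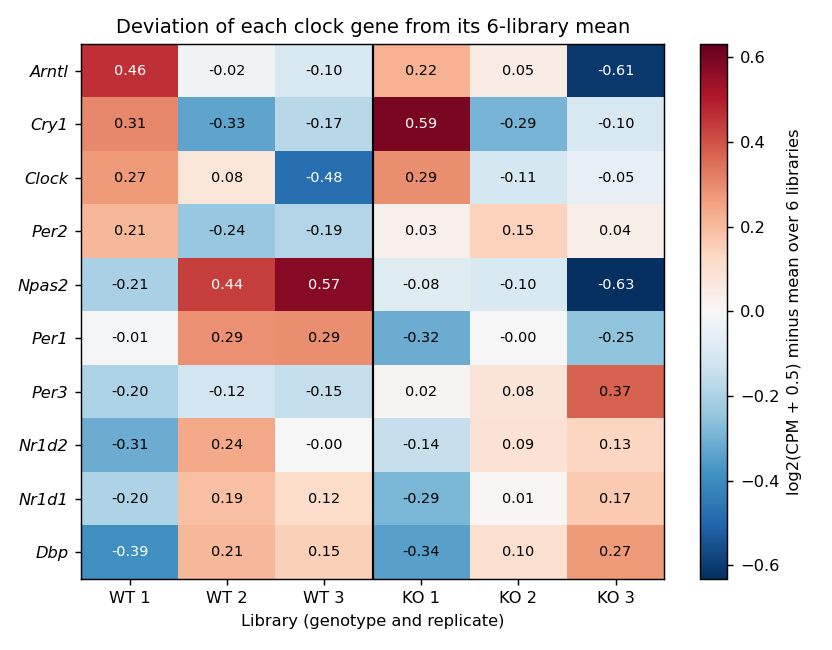
Deviation of each core clock gene from its own mean over the 6 libraries (colour and printed value, log2(CPM + 0.5) units), with libraries in columns, WT to the left of the line and KO to the right. Arntl stood 0.46 and 0.22 above its mean in WT replicate 1 and KO replicate 1, where Dbp stood at -0.39 and -0.34, and Arntl was lowest in KO replicate 3 (-0.61), where Dbp was highest (0.27).

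The level of Arntl in a library was therefore set against that of each other member, as Pearson's r over the 6 libraries on the log2(CPM + 0.5) scale. These values are given as a description, since the points share libraries that differ in marker sums and depth. Dbp ran opposite to Arntl (r = -0.83, Spearman's rho -0.94), as did Per3 (r = -0.78, rho -0.49), Nr1d1 (r = -0.75, rho -0.77) and Nr1d2 (r = -0.72, rho -0.71). Cry1 (r = 0.52, rho 0.43) and Clock (r = 0.51, rho 0.66) ran with Arntl, and Per2 (r = 0.33), Npas2 (r = 0.26) and Per1 (r = 0.10) showed no clear relation. Each r is to be read against the other genes of these libraries. The median r of all 14305 other genes tested was -0.01, and 2.56% of them had an r as low as that of Dbp, 4.46% as low as Per3, 5.49% as low as Nr1d1 and 7.18% as low as Nr1d2. For Cry1 and Clock 20.4% and 20.9% of genes had an r as high.

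The opposition of Dbp and the REV-ERB genes to Arntl was also present within the genotypes. With each library taken as a deviation from the mean of its genotype, r was -0.88 for Dbp, -0.90 for Nr1d1 and -0.72 for Nr1d2. Each is a single r over the deviations of both genotypes together. The share of other genes with such values was not computed for this or the settings below. Without the 2 libraries farthest from the median of Arntl, WT replicate 1 and KO replicate 3, it was -0.92, -0.93 and -0.60, over 4 libraries. With any single library left out, r stayed between -0.92 and -0.72 for Dbp, -0.84 and -0.66 for Nr1d1 and -0.86 and -0.47 for Nr1d2. For Per3 r was -0.91 within the genotypes and between -0.89 and -0.21 with any single library left out, but 0.69 without WT replicate 1 and KO replicate 3 together, so its relation rested on those 2 libraries. The r of Per2 lay between -0.05 and 0.78 and that of Npas2 between -0.82 and 0.53 as single libraries were left out.

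**Figure D5:**
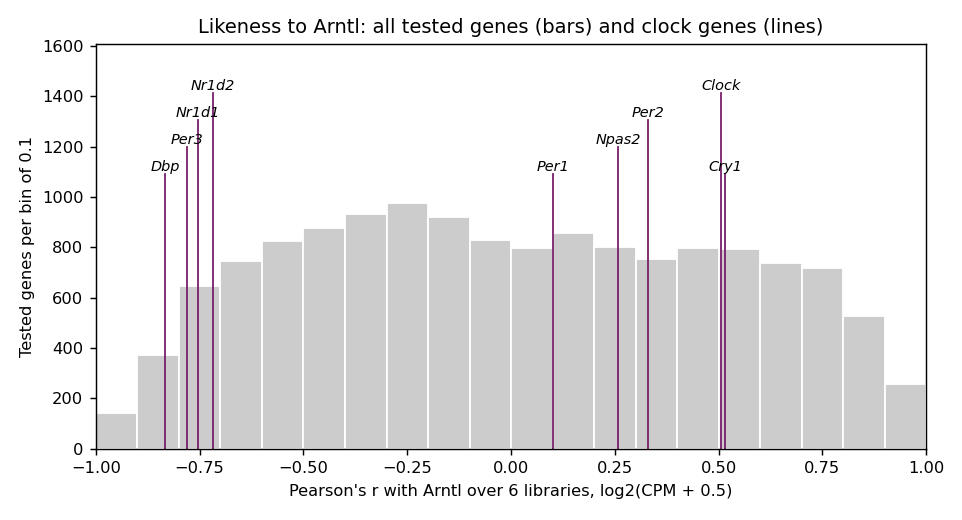
Number of tested genes (vertical axis, grey bars of width 0.1) by their Pearson's r with Arntl over 6 libraries (horizontal axis), with purple lines at the other 9 core clock genes. Dbp, Per3, Nr1d1 and Nr1d2 lie at the left, between -0.83 and -0.72, and Cry1 and Clock at 0.52 and 0.51.

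The genes whose pattern was most like that of Arntl over the 6 libraries were Ppm1g (r = 0.994), 2300009A05Rik (0.992), Sub1 (0.991), Polr2d (0.991) and 3110082I17Rik (0.989), and the most opposite were Csk (-0.987), D630003M21Rik (-0.987), Serf2 (-0.986), Crocc (-0.984) and Dhcr7 (-0.978). None of these is a member or stands in the list of other clock genes. Of the genes tested, 1.80% had an r above 0.9 with Arntl and 0.9997% below -0.9.

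Because Dbp was read from 272 to 581 reads per library, against 40 to 140 for Arntl, it was also used as the reference, a choice made after the values were seen. Nr1d1 followed Dbp with r = 0.96 (rho 0.89), rank 42 of 14305 genes, and Nr1d2 with r = 0.91 (rho 0.89), rank 250. Without any single library, r stayed at 0.96 to 0.98 for Nr1d1 and at 0.85 to 0.95 for Nr1d2. Cry1 ran opposite to Dbp (r = -0.89, rank 281 from the most opposite), and Arntl did so with rank 561. Without WT replicate 1 and KO replicate 1, the libraries where Dbp was farthest from its median, r was 0.85 for Nr1d1, 0.49 for Nr1d2 and -0.83 for Arntl, but 0.52 for Cry1, whose relation therefore rested on those libraries. Tef, a relative of Dbp, followed it with r = 0.69, and Hlf, another, with r = 0.12. For the remaining members, r with Dbp was -0.70 for Clock, -0.55 for Per2, 0.44 for Per3, 0.40 for Per1 and 0.16 for Npas2. That of Clock turned to 0.41 without WT replicate 1 and KO replicate 1. From the list of other clock genes, Ciart (r = 0.26) and Nfil3 (r = 0.08) were also set against Dbp.

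Within each library the log2 level of Arntl minus that of Dbp was -1.37, -2.44 and -2.46 in WT and -1.65, -2.27 and -3.09 in KO. The genotype means, -2.09 ± 0.63 and -2.34 ± 0.72 (SD, n = 3), differed by -0.25. The same difference against Nr1d1 shifted by -0.15 between genotypes, and against Nr1d2 by -0.28. Against Per3 the shift was -0.54, with KO replicate 3 lowest at -2.55. For all 4 differences the WT and KO values overlapped. The spread of single members over the 6 libraries was not unusual among the genes tested, whose median SD was 0.25 on the log2 scale. It was 0.44 for Npas2, 0.37 for Cry1, 0.36 for Arntl, 0.29 for Dbp and Clock, 0.26 for Per1 and 0.18 to 0.21 for Per2, Per3, Nr1d1 and Nr1d2.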

How the data were processed

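The authors trimmed the reads, aligned them to mm10 with STAR (2.7.3a, per the labels), quantified transcripts with Partek Flow and divided gene counts by the library total. The deposited values are therefore CPM, to which the authors added an offset of 0.0001, removed here. The methods name no model for comparing the skin libraries. Between 91.8% and 92.8% of values under 20 reads lay within 0.1 of a whole read, so recovered reads are estimates and no count model was the main test. KO was compared with WT in R 4.3.3 with limma 3.58.1 on log2(CPM + 0.5), with a mean-variance trend, two-sided, for 14306 of 15667 genes, those averaging 1 CPM or more, with Benjamini-Hochberg adjustment over all of them. Fold changes on this scale understate changes of low genes. Per the methods of the study each library came from a separate mouse. The fit was tested on simulated data.

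Same-numbered replicates did not deviate together for every number: r was 0.38 for number 1, but -0.31 and -0.22 for numbers 2 and 3. The highest r of any pairing was 0.45, between WT replicate 3 and KO replicate 2. Numbers were therefore not used as pairs in the main comparison. The members and lists were chosen with earlier results of these data known. Named were all members, Adipoq, the 4 other clock genes of smallest p, and the 5 genes most and least like Arntl. Outside this rule, and chosen with values seen, the text names Wee1, Tef, Ciart, Csnk1d and 4 glucocorticoid-induced genes. It also names the overlapping genes Thra and Sphk2, and Fbxl21 and Rn45s as facts of the table. Positions are those of the deposited table with the listed ends lowered by 1. Alternatives were other pseudocounts (0.1 and 2), filters (none, and a mean of 5 CPM), rescalings, variance models, limma voom on recovered reads, a replicate block, hair follicle and skeletal muscle covariates, and leaving out each library. The covariates are mean log2 levels of the marker lists.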

Additional observations from a re-analysis of the deposited data

How the results depend on the processing

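None of the 10 clock genes passed the adjustment in the main comparison or under any of its 19 alternatives in limma, with the smallest adjusted p at 0.620 (Per1, hair follicle covariate), and 2 had an unadjusted p below 0.05. The number of members lower in KO at an unadjusted p below 0.05 was 0 to 2 as single libraries were left out (2 without WT replicate 1, 0 without WT replicates 2 and 3 or KO replicates 1 and 3), and the number higher was 0 to 1 (1 only without KO replicate 1). The number higher was also 0 without the trend, with limma voom and with the hair follicle covariate. Groups did not overlap in 2 members after median-of-ratios rescaling and with the total without Rn45s, a count added after the data had been seen, against 7.96% and 7.88% of all genes tested. Of the other clock genes, 1 was lower with the hair follicle covariate, and 0 to 1 as single libraries were left out. For all genes tested, lower genes numbered 414 with the replicate block, 558 with the hair follicle covariate, 428 with the skeletal muscle covariate and 147 to 390 without a library. Higher genes numbered 232 after quantile normalization, 303 and 231 with the 2 covariates and 89 to 320 without a library. Genes passing the adjustment numbered 1 with limma voom, 9 and 0 with the 2 covariates and 0 to 16 without a library. The replicate block left Per1 and Per3 as the members at an unadjusted p below 0.05, so that the numbers stayed at 1 lower and 1 higher.

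Some fold changes near 0 turned sign. With the skeletal muscle covariate the log2 fold change was -0.13 for Clock, -0.14 for Cry1 and 0.14 for Nr1d1, while it kept its sign at 0.21 for Nr1d2 and 0.32 for Dbp. That of Dbp was -0.0199 with limma voom and -0.0477 with the hair follicle covariate. As single libraries were left out it ranged from -0.40 to 0.018 for Arntl, -0.13 to 0.25 for Clock, -0.13 to 0.32 for Cry1, -0.19 to 0.051 for Nr1d1, -0.090 to 0.19 for Nr1d2 and -0.17 to 0.19 for Dbp. The likeness of Npas2 to Arntl turned to -0.086 as Spearman's rho and -0.832 without the 2 farthest libraries, that of Per1 to -0.314 as rho, -0.331 within genotypes and -0.969 without those libraries, and that of Per3 to 0.685 without them. As single libraries were left out, the r with Arntl ranged from -0.82 to 0.53 for Npas2, -0.61 to 0.37 for Per1 and -0.0486 to 0.78 for Per2. The cause of these changes was not tested. Depth limits Npas2 most, at 10 to 45 reads per library.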
